A study of Mus musculus with 6 samples.

Results

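The genes of fatty acid oxidation and ketogenesis were followed in mouse small intestine after deletion of Fitm2 (FIT2), a protein of the endoplasmic reticulum involved in lipid droplet formation. The set was a list of 33 named genes, and each was read from the brightest probe set that the array annotation assigned to that gene alone. All 33 were measured above the threshold for dim genes, a mean intensity of 38.9 or log2 5.28, which 13042 genes passed in all. By the place of their products, 18 members are mitochondrial, 8 peroxisomal, 3 belong to both compartments, and 4 act elsewhere. KO mice carried ROSA26CreERT2, a Cre recombinase expressed from a broadly active locus and switched on by tamoxifen, together with L/L alleles. The L/L controls carried those alleles without Cre, and the labels do not spell out the notation. Both genotypes were given tamoxifen at 100 µg per g by injection into the abdomen, on a schedule of days 1, 2 and 3, and the whole flushed small intestine was taken on day 2, 3 or 5. How many doses the mice of days 2 and 3 had received is not stated. RNA was pooled before hybridisation from 7, 6 and 7 KO mice and from 6, 6 and 8 L/L mice on days 2, 3 and 5. Each pool gave 1 array, so a genotype had no replicate within a day and the spread between mice cannot be seen. The labels name no strain, age or sex, and effects of the deletion and of active Cre cannot be told apart.

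Long-chain fatty acids enter mitochondria as carnitine esters and are shortened there by repeated rounds of dehydrogenation, hydration, a further dehydrogenation and thiolysis. Peroxisomes run a parallel pathway for very long and branched chains, which are imported by transporters of the ABC family. Acetyl-CoA from either source can be burned or, in liver and in the intestine of suckling rodents, turned into ketone bodies. The nuclear receptor PPARA, bound by fatty acids, and its coactivator PGC-1alpha (Ppargc1a) drive many of these genes. Enterocytes meet large amounts of dietary fat, most of which they export in chylomicrons or hold briefly in lipid droplets.

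The start regions of 3 members are shown because each held AGGTCA, the core letters to which nuclear receptors of this pathway bind, and that of Hadha and Hadhb because these partner genes share it. Windows from 250 bases before to 50 after a start, taken from RefSeq on GRCm38.p6, were found for 27 of the 33 members. The 6 members without a window, Acaa2, Acat1, Crat, Decr1, Hsd17b4 and Vnn1, were not searched. Both strands were searched. Below are the 250 bases before each start, 5′ to 3′ in the direction of the gene, with the match in capitals. Acadm lies at chr3:153944644-153944893 on the minus strand, Acadvl at chr11:70015429-70015678 on the minus strand and Cpt1a at chr19:3323051-3323300 on the plus strand.
Acadm: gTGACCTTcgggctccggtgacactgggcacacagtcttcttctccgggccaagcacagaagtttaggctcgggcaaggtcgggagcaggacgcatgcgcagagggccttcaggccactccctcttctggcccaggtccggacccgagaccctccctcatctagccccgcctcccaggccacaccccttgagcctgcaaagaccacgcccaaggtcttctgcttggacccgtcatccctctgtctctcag
Acadvl: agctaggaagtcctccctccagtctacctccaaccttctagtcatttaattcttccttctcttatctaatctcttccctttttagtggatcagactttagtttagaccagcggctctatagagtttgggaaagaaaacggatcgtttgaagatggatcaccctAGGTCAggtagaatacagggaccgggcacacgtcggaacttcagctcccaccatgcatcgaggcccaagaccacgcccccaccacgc
Cpt1a: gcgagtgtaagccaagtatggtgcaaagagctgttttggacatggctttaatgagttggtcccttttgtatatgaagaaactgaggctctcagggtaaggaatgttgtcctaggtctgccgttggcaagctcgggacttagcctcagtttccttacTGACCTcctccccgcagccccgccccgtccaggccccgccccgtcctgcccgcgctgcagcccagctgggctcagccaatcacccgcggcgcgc
AGGTCA or its reverse complement was present in the windows of these 3 members and in 16.3% of all 32851 windows. In Acadm it began 249 bases before the start and lay inside the longer match AAGGTCA, which 4.72% of windows held. The full element of the receptor pair, AGGNCA repeated after 1 further base of any kind, was in 0 of the 27 members' windows and in 0.381% of all. The element of the respiratory gene regulator NRF1, GCGCA followed directly by its reverse complement TGCGC, was found in Etfdh and Ppara and in 0.971% of windows. These are matches of letters and not measured binding sites.

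Hadha and Hadhb encode the alpha and beta subunits of the mitochondrial trifunctional protein and are transcribed away from each other on chromosome 5. Their annotated starts lie 273 bases apart, Hadha on the minus strand and Hadhb on the plus strand, so that the sequence between them stands before both genes. It is given on the plus strand, chr5:30154981-30155252 of GRCm38.p6.
Hadha and Hadhb: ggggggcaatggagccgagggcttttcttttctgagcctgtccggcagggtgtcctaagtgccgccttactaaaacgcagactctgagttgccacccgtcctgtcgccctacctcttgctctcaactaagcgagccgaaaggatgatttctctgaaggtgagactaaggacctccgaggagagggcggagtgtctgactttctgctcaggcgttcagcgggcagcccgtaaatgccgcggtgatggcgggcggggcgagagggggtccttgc
Start windows of the members held more G and C than those of all genes with a window, with a median of 60.3% against 52.7% over 27025 genes. That background was not limited to the 13042 genes kept on the arrays, and the part of expression in the gap was not tested. The median number of CpG pairs per window was 16 in members and 7 in all genes. Windows with at least 10 CpG pairs made up 81.5% of members and 43.9% of all genes.

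Fitm2 itself had intensities of 123, 127 and 120 in KO and 193, 223 and 211 in L/L on days 2, 3 and 5. KO lay below L/L on every day, although the probe set kept a signal above the threshold, and where it lies relative to the deleted part was not analysed here. Enterocyte markers summed to between 147787 and 157421 in KO and between 144262 and 157192 in L/L, over 11 of 12 markers measured. Markers of crypt and proliferating cells, 7 of 8 measured, summed to 11803, 10324 and 5885 in KO against 11492, 11165 and 11357 in L/L. Most of the day 5 gap came from the crypt stem cell gene Olfm4, with 1545 in KO and 6061 in L/L. On day 5, 4 of the 7 markers were lower in KO. These were Olfm4, Mki67, Top2a and Lgr5, with differences of -1.97, -0.98, -0.68 and -0.35 on the log2 scale. Ascl2, Mcm2 and Pcna were higher in KO by 0.15, 0.06 and 0.03 on the log2 scale. Smooth muscle markers, 8 of 8 measured, summed to 33051 in KO and 28288 in L/L on day 5. On day 5 fat markers, 5 of 10 measured, summed to 1311 in KO and 927 in L/L, and 0 of the 5 were lower in KO. Most of both sums was the lipid droplet gene Cidec, with 890 in KO and 582 in L/L. Hepatocyte markers, 4 of 10 measured and without Alb, summed to 417 in KO and 308 in L/L on day 5. Distal segment markers, 7 of 7 measured, summed to 30712, 29853 and 21287 in KO and 30602, 28346 and 25104 in L/L. Among them Cubn, a receptor of ileal and renal epithelium, fell within KO by the limma test described below (adjusted p = 0.0278). Its intensities were 7523, 5256 and 2410.2 in KO and 7845, 5991 and 4595 in L/L. On day 5, 5 of the 7 distal markers were lower in KO, while Slc10a2 and Muc13 were higher by 0.88 and 0.13 on the log2 scale. Proximal markers, 6 of 7 measured, summed to between 40037 and 43363 in KO and between 38296 and 42984 in L/L. Cybrd1 rose within KO (limma, adjusted p = 0.03). On day 5, 2 of the 6 were lower in KO, Gata4 by a difference of -0.52 and Lct by -0.25. Striated muscle and acinar markers stayed dim, at no more than 1068 and 620.1 in KO and 940.1 and 594 in L/L. The part of these markers in the values below was not tested.

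As a group, fatty acid oxidation genes were at the same level in both genotypes on day 2 and mostly lower in KO on day 5. The median difference of KO minus L/L over the 33 members, on the log2 scale of the intensities, came to 0.0037, -0.12 and -0.35 for days 2, 3 and 5, while the medians over all genes were 0.01, -0.0079 and 0.02. On day 5, 28 of 33 members and 45.9% of all genes were lower in KO. Below the 10th percentile of all genes, which was -0.32, lay 19 of 33 members. At least 1.5-fold lower in KO on day 5 were 5 members (Acadm, Ppargc1a, Decr1, Acaa2 and Etfa), where 3.1% of all genes passed that fold, and 0 members were 1.5-fold higher, where 5.19% of genes were. Eci1, Acat1, Eci2 and Cpt2 lay just outside that fold, with day 5 differences of -0.58, -0.58, -0.57 and -0.57. No member reached 1.5-fold lower on day 2 or day 3, when 0.107% and 0.506% of genes did, or 1.5-fold higher, when 0.429% and 1.1% did. These single-day differences rest on 1 array per genotype and have no test. In whole tissue, fewer cells of a type and less RNA per cell cannot be told apart.

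**Figure D1:**
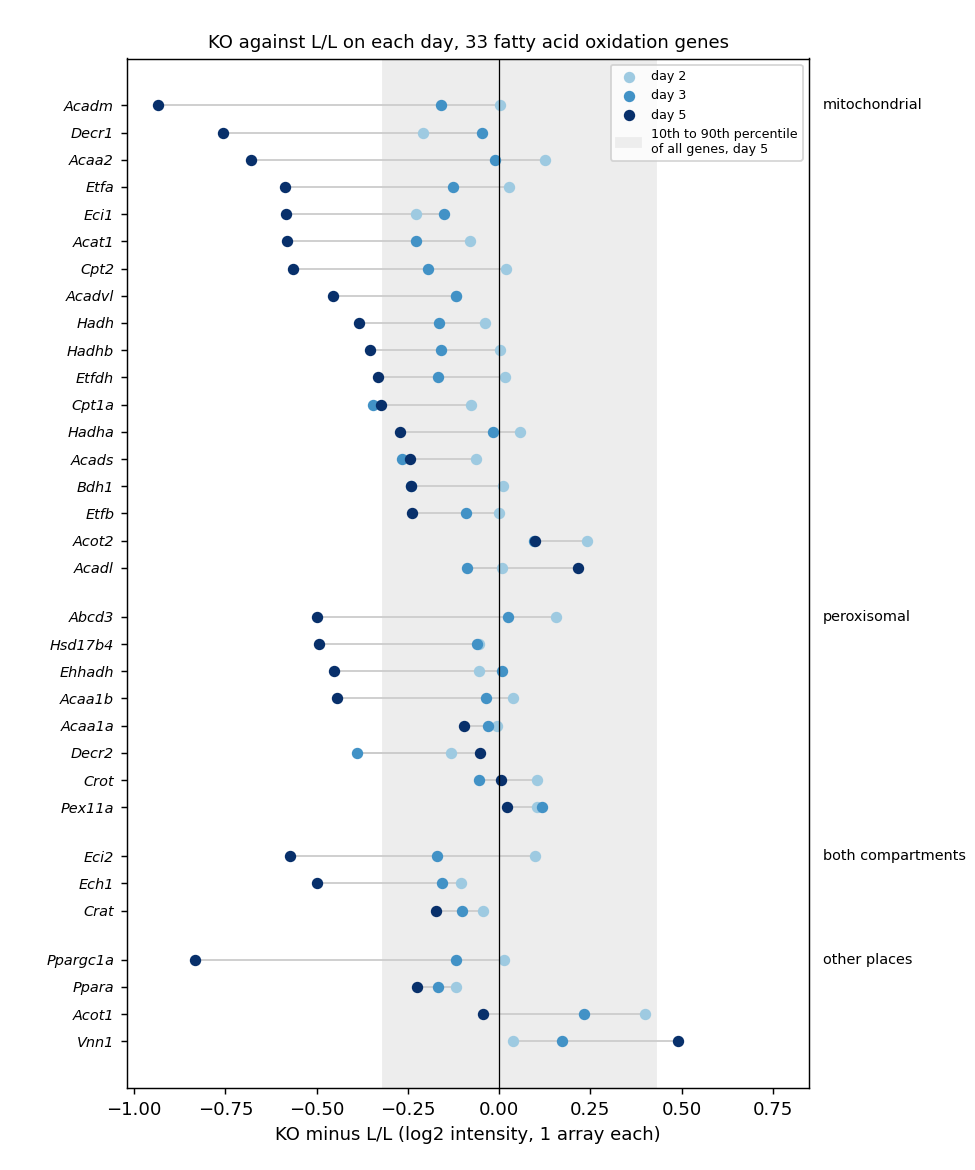
Difference of KO minus L/L in log2 intensity for each of the 33 members (rows, grouped by compartment), with 1 point per day and the grey band marking the 10th to 90th percentile of all genes on day 5. The day 2 points lie around 0 and most day 5 points lie to the left of the band, down to -0.93 for Acadm, while Vnn1 lies to its right at 0.49.

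Among the regulators, PGC-1alpha separated by genotype on day 5 and Ppara by a small amount on every day. Ppargc1a had intensities of 1331, 1285 and 1042 in KO and 1318, 1395 and 1857 in L/L on days 2, 3 and 5. The pools were alike on day 2, and the day 5 difference of -0.83 combined a lower KO level with a higher L/L level than on day 2. All 4 other Ppargc1a probe sets above the threshold showed the same order on day 5, with differences between -0.62 and -1.19. Ppara, the receptor, had 541, 535 and 525 in KO and 587, 601 and 614 in L/L. Its KO arrays all lay below its L/L arrays, with differences between -0.12 and -0.23 on the log2 scale. A dimmer Ppara probe set gave 0.02 on day 3 and -0.43 on day 5.

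Entry of long-chain fatty acids into mitochondria is governed by carnitine palmitoyltransferase 1 (Cpt1a), the outer membrane enzyme that malonyl-CoA inhibits. Cpt1a had intensities of 1166, 1166 and 1033 in KO and 1230.0, 1481 and 1292 in L/L. All 3 KO arrays lay below all 3 L/L arrays, with the day 5 difference at -0.32. Its dimmer probe sets, both of a kind that can bind several transcripts, gave -0.66 and -1.03 on day 5, since their L/L signal was highest then. Cpt2, which turns the carnitine ester back into acyl-CoA on the inner membrane, had 1755, 1602 and 1092 in KO and 1733, 1835 and 1616 in L/L. The genotypes were level on day 2, and the KO day 5 array was the lowest of the 6. Crat, which handles acetyl groups in both compartments, had 564, 488 and 469 in KO and 581, 524 and 529 in L/L. Crot, the peroxisomal octanoyltransferase, had 1829, 1509 and 1598 in KO and 1701, 1567 and 1593 in L/L. For both the genotypes overlapped, and Crot on day 5 differed by only 0.0042.

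Acyl-CoA dehydrogenases open each round, each for its own range of chain lengths. Acadm, the medium-chain enzyme, had the largest day 5 difference of the 33 members. Its intensities were 2847, 2584 and 1629.7 in KO and 2839.6, 2886 and 3112 in L/L, so the pools were equal on day 2 and KO was 47.6% lower on day 5. Acadvl, the very-long-chain enzyme, had 2011, 2064 and 1405 in KO and 2183, 2239 and 1925 in L/L. KO was below L/L on each day, with -0.45 on day 5. Acads, the short-chain enzyme, had 787, 776 and 708 in KO and 823, 933 and 839 in L/L, with no overlap between genotypes. Acadl, the long-chain enzyme, had the opposite order on day 5. It had 4142, 4203 and 5151 in KO and 4118, 4463 and 4433 in L/L. It was 1 of 2 mitochondrial members higher in KO on day 5, by 0.22, and the other was the thioesterase Acot2.

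Later steps of the mitochondrial round were led by Acaa2, the thiolase that releases acetyl-CoA. Acaa2 had intensities of 2839, 2283 and 1298 in KO and 2603, 2300.1 and 2080.5 in L/L. KO was the higher genotype on day 2 and lower by 37.6% on day 5, and its KO day 5 intensity was 0.457 times that of KO day 2, the lowest such ratio of the members. Both other Acaa2 probe sets were also lower in KO on day 5, at -0.64 and -0.44, and on day 2 they differed by -0.01 and 0.09. From day 2 to day 5 they changed by -1.26 and -1.38 in KO and by -0.63 and -0.84 in L/L. The brightest Acaa2 set, of a kind that can bind several transcripts, changed by -1.13 in KO and -0.32 in L/L. The size of the Acaa2 fall in L/L thus depends on the probe set. Hadha had 1479, 1536 and 839.8 in KO and 1420.2, 1553 and 1013 in L/L, so both genotypes were lowest on day 5 and the difference then was -0.27. Hadhb had 2803, 2619.8 and 2097 in KO and 2797, 2925 and 2680.1 in L/L. The 2 genes share their start region, yet their brightest probe sets differed in the change from day 2 to day 5. In L/L it was -0.49 for Hadha and -0.06 for Hadhb, and in KO -0.82 for Hadha and -0.42 for Hadhb. Other Hadhb probe sets changed by 0.61 and 0.15 in L/L and by -0.20 and -0.06 in KO. The size and sign of the Hadhb change thus depend on the probe set. Hadh, the dehydrogenase for medium and short chains and the brightest member, had 12429, 11712 and 9475 in KO and 12762, 13136 and 12351 in L/L. KO was below L/L on each day, and the genotypes overlapped by a narrow margin.

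Unsaturated fatty acids need auxiliary enzymes that move or reduce double bonds. Decr1, the mitochondrial 2,4-dienoyl-CoA reductase, had 2097, 2147 and 1426 in KO and 2425, 2217 and 2409 in L/L. Every KO array lay below every L/L array, with a day 5 difference of -0.76, and its dimmer probe set gave -1.10. Eci1, a mitochondrial enoyl-CoA isomerase, had 665, 673 and 449.8 in KO and 779, 747 and 675 in L/L, also without overlap. Eci2, an isomerase of both compartments, had 989, 994 and 763 in KO and 923, 1118 and 1136 in L/L. KO was above L/L on day 2 and the lowest of the 6 arrays on day 5. Ech1, a dienoyl-CoA isomerase, had 2542, 2205 and 1727 in KO and 2734, 2457 and 2442 in L/L, lower in KO on each day. Decr2, the peroxisomal reductase and dimmest member, had 229, 239 and 209 in KO and 251, 312 and 216 in L/L. Its largest gap was on day 3, at -0.39, and on day 5 the difference was -0.05.

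Electrons from the acyl-CoA dehydrogenases pass to the electron transfer flavoprotein, made of Etfa and Etfb, and on to the respiratory chain through Etfdh. Etfa had intensities of 3322, 3125 and 2356 in KO and 3259, 3409 and 3535 in L/L. Its genotypes lay farthest apart on day 5, at -0.59. Etfb had 2029, 2060.2 and 1637 in KO and 2028, 2194 and 1931 in L/L, and Etfdh had 1455, 1329 and 1185 in KO and 1438, 1493 and 1492 in L/L. For all 3 genes KO was within 0.03 of L/L on day 2 and the lowest array was KO day 5.

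For ketone body metabolism the list held the mitochondrial thiolase Acat1 and the hydroxybutyrate dehydrogenase Bdh1. Acat1 had 2478, 2231 and 1659 in KO and 2616, 2610.4 and 2482 in L/L, without overlap, and a day 5 difference of -0.58. Its other probe sets gave -0.64 and -0.69. Bdh1 had 2142, 2119 and 1726 in KO and 2125, 2507 and 2040.5 in L/L, which overlapped.

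Peroxisomal members were lower in KO on day 5 in part. Abcd3, the membrane transporter known as PMP70, had intensities of 4677, 3969 and 2703 in KO and 4196, 3899 and 3819 in L/L. KO was higher on day 2 and the lowest array by a wide margin on day 5. Hsd17b4, the D-bifunctional protein for the middle steps of the round, had 2649, 2245 and 1369.7 in KO and 2754, 2342 and 1928 in L/L. Both genotypes were lower on day 5 than on day 2, with changes of -0.95 in KO and -0.51 in L/L. Its other probe set, of a kind that can bind several transcripts, changed by -0.93 in KO and -0.18 in L/L. That set gave a day 5 difference of -0.80 in place of -0.49. Ehhadh, the L-bifunctional protein, had 1391, 1339 and 1090.4 in KO and 1445, 1331 and 1491 in L/L. The genotypes were level on days 2 and 3, and KO was lower on day 5 at -0.45. The thiolase Acaa1b had 827, 769.5 and 612 in KO and 806, 788 and 833 in L/L, a day 5 difference of -0.44. Its close paralog Acaa1a, read from a probe set that can bind several transcripts, had 664, 649.7 and 644 in KO and 667, 663 and 689 in L/L. Another Acaa1a probe set of the same kind gave -0.64 on day 5 in place of -0.10, so signals of the Acaa1 pair are uncertain. Pex11a, which promotes peroxisome division, had 683, 713 and 670.3 in KO and 636, 657 and 659.7 in L/L. It was 1 of 2 members with every KO array above every L/L array, and by 0.02 only on day 5.

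The remaining members are thioesterases, which free fatty acids from CoA, and the pantetheinase Vnn1. Acot1, the cytosolic enzyme, had 314, 263 and 226 in KO and 238, 224 and 233 in L/L. KO was higher by 0.40 on day 2 and level on day 5. Acot2, its mitochondrial paralog of near-identical sequence, had 457, 427 and 414 in KO and 387, 399.9 and 387 in L/L. All KO arrays lay above all L/L arrays, but a dimmer Acot2 probe set turned to -0.08 on day 5. Vnn1, an ectoenzyme that releases pantothenate for CoA synthesis and a known PPARA target, had 2236, 2434 and 3895 in KO and 2179, 2162 and 2773 in L/L. It was the member with the highest day 5 difference, 0.49, and its dimmer probe set gave 0.70.

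**Figure D2:**
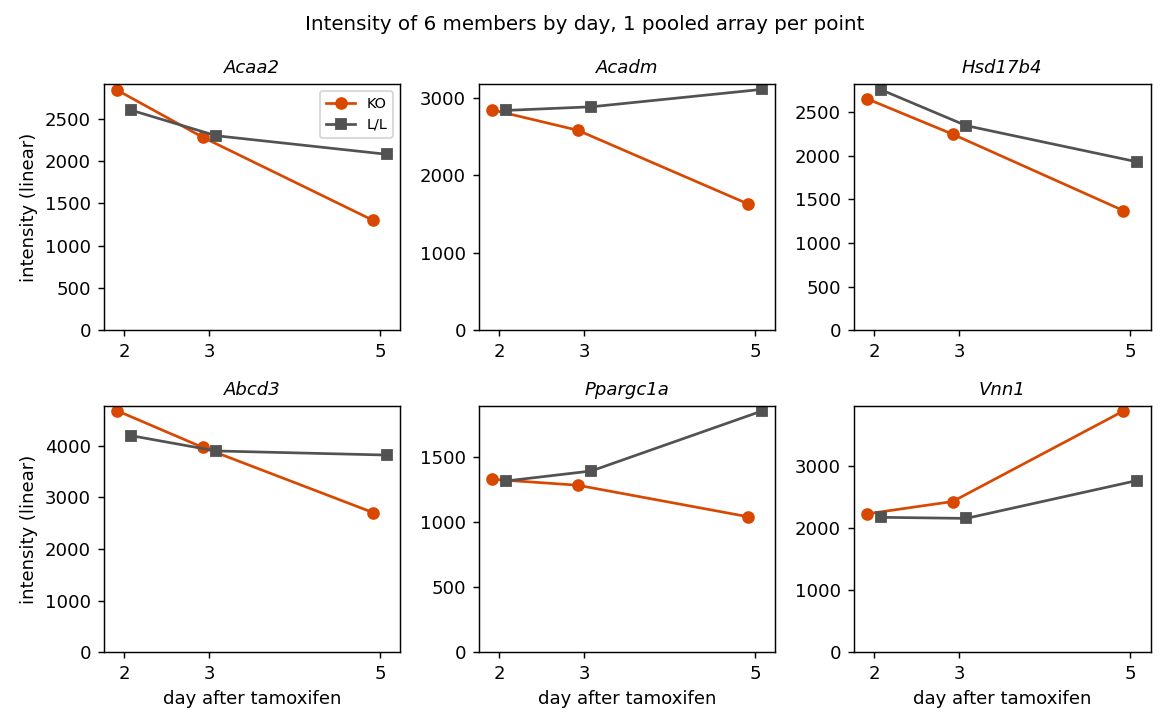
Linear intensity (vertical axes, each from 0) against day after tamoxifen for 6 members, 1 pooled array per point, KO as orange circles and L/L as grey squares. Acaa2, Acadm, Hsd17b4 and Abcd3 end lowest in KO on day 5, Ppargc1a ends lower in KO than in L/L (1042 and 1857), and Vnn1 ends higher in KO (3895 and 2773).

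Across the days, the test of an average genotype difference called none of the members. With limma and day as a factor, and p-values adjusted by Benjamini-Hochberg over the 13042 genes, the genotype difference over the 3 days had adjusted p between 0.384 and 0.914 for the 33 members, and 0 of 33 passed, where 0.023% of genes passed in either direction. At an unadjusted p below 0.05, 6 members were lower in KO and 0 higher, and 4.61% of all genes were lower. Mean differences over the days were negative for 27 of 33 members and 46.6% of all genes. Acadm was at -0.36 ± 0.50, Decr1 at -0.34 ± 0.37, Eci1 at -0.32 ± 0.23 and Acat1 at -0.30 ± 0.26 (SD over 3 days). For Acadm and Decr1 the spread between days exceeded the size of the mean. Differences were negative on all 3 days for 13 members and for 17.4% of all genes, and positive on all 3 days for 3 members and 22.1% of genes. All KO arrays lay below all L/L arrays for 6 members (Ppara, Cpt1a, Acads, Decr1, Eci1 and Acat1), where 5.66% of genes did so. The opposite order held for Acot2 and Pex11a, where 7.48% of genes showed it.

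A change of the genotype difference from day to day was also not called for any member. With limma, 0 of 33 members passed for the slope of the difference, where 1.23% of genes passed in either direction, 0.583% with a falling and 0.644% with a rising difference. Acadm came nearest at -0.32 ± 0.05 per day on the log2 scale (SE, adjusted p = 0.0561), followed by Ppargc1a at -0.29 ± 0.05 (SE, adjusted p = 0.0702) and Acaa2 at -0.28 ± 0.05 (SE, adjusted p = 0.0746). Slopes were negative for 30 of 33 members and for 6168 of the 13042 genes. A negative slope with an unadjusted p below 0.05 was found for 16 members and 7.87% of all genes. This fit has 1 residual degree of freedom, and 160 genes passed it in all. When day entered as a straight line in each genotype, an alternative chosen after the values were seen, 0 genes passed and these 3 members had adjusted p between 0.214 and 0.241 by limma.

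Within KO, 4 oxidation genes fell over the days and Vnn1 rose. In the limma fit with a straight line of day for each genotype, Acaa2 changed by -0.38 ± 0.04 per day (SE, adjusted p = 0.0278), Hsd17b4 by -0.32 ± 0.04 (adjusted p = 0.0313), Abcd3 by -0.27 ± 0.04 (adjusted p = 0.042) and Acadm by -0.28 ± 0.04 (adjusted p = 0.045). Of all genes, 1.3% fell within KO by this test, against 4 of 33 members. Vnn1 changed by 0.28 ± 0.05 per day (adjusted p = 0.0499, limma), and 1.18% of genes rose, 2.48% in either direction. Cpt2 and Acat1 were just outside, at adjusted p of 0.0575 and 0.0625. Negative KO slopes were found for 31 of 33 members and for 6542 of the 13042 genes. With an unadjusted p below 0.05 as well they were found for 20 members and 10% of all genes.

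These calls rest on few arrays. Without the KO day 5 array no gene of the 13042 passed, and without KO day 2 no member did. Without KO day 3 only Acaa2 passed among the members (adjusted p = 0.0352 by limma). Leaving out an L/L array cannot move a KO slope in this fit and changes only the shared estimate of the spread. The outcome was the same whichever L/L array was left out. It kept the 4 falling members and ended the call of Vnn1 (adjusted p = 0.0518, limma). Crypt marker sums over the same KO arrays were 11803, 10324 and 5885, of which Olfm4 made up 5992, 4639 and 1545. Olfm4 fell within KO, at -0.67 per day (adjusted p = 0.0278, limma). What part the crypt markers had in the members' slopes was not tested.

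Within L/L, limma called no member over the days, and no gene in all passed. The L/L slope was -0.10 per day for Acaa2, -0.17 for Hsd17b4, 0.05 for Acadm, -0.04 for Abcd3 and 0.13 for Vnn1. The lowest adjusted p among members was 0.268, for a positive slope of Ppargc1a of 0.17 ± 0.04 per day (SE, limma). At an unadjusted p below 0.05, 2 members were lower over the days and 2 higher, and 6.33% of all genes were lower. From day 2 to day 5 the median change over the members was -0.37 in KO and -0.03 in L/L, where the medians of all genes were 0.0020 and -0.0072. At least 1.5-fold lower on day 5 than on day 2 in KO were 6 members (Cpt2, Acadm, Hadha, Acaa2, Hsd17b4 and Abcd3; 3.63% of all genes), and in L/L 0 members (1.77% of genes). Vnn1 was more than 1.5-fold higher in KO (4.63% of genes) and 0 members were in L/L (1.15% of genes).

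**Figure D3:**
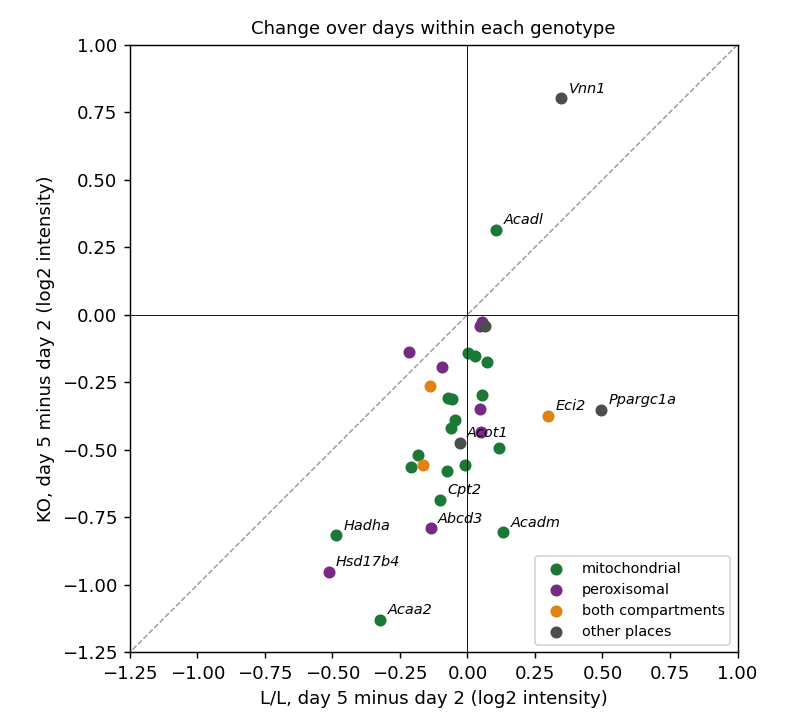
Change from day 2 to day 5 in log2 intensity within KO (vertical axis) against the same change within L/L (horizontal axis), 1 point per member, coloured by compartment, with the dashed line marking equal change. Most members lie below the line and below 0 on the KO axis, with Acaa2 lowest at -1.13, while Vnn1 and Acadl lie above 0 in both genotypes.

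Mitochondrial members were lower in KO on day 5 by a larger median than peroxisomal ones, with overlapping ranges. Of 18 mitochondrial members 16 were lower in KO on day 5, with a median of -0.37 and a range from -0.93 to 0.22. Of 8 peroxisomal members 6 were lower, with a median of -0.27 and a range from -0.50 to 0.02. The 3 members of both compartments (Eci2, Crat and Ech1) were all lower, with a median of -0.50. Of all genes, 45.9% were lower in KO on day 5 and 3.1% at least 1.5-fold lower. At 1.5-fold, 4 of 18 mitochondrial and 0 of 8 peroxisomal members passed, and 0 of 8 is near the share of all genes. On day 3 the medians were -0.15 and -0.03, with 17 of 18 mitochondrial and 5 of 8 peroxisomal members lower in KO. The share of all genes lower in KO on day 3 was 52.3%. Counting the members of both compartments as peroxisomal moved that group's day 5 median to -0.44, below the mitochondrial one, so the order of the compartments changes with the grouping. With the mean of all probe sets the medians were -0.43 for mitochondrial and -0.41 for peroxisomal members. No test of the order was made.

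**Figure D4:**
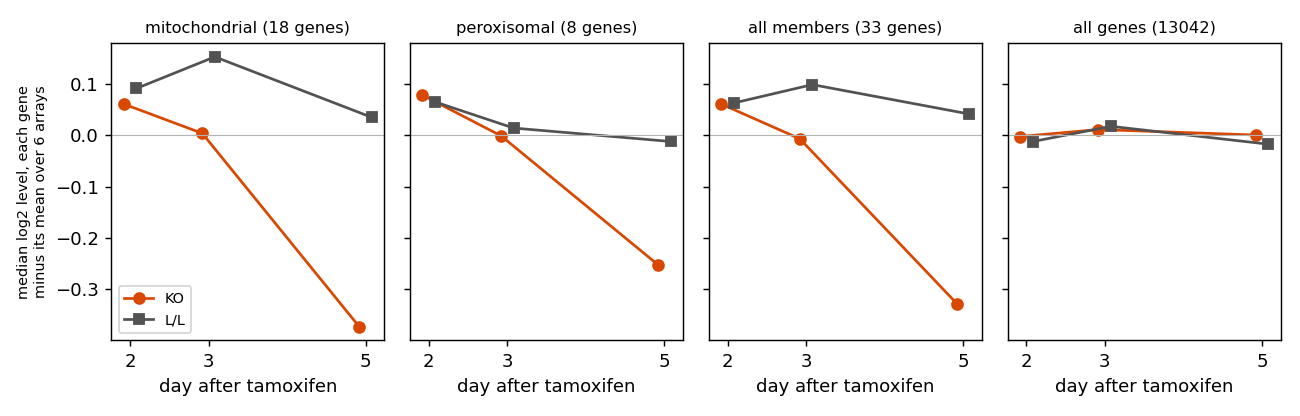
Median log2 level of each group on each array, after each gene's mean over the 6 arrays was subtracted, against day after tamoxifen, KO as orange circles and L/L as grey squares. The mitochondrial and peroxisomal members and all 33 together are lowest in KO on day 5, where all 13042 genes stay near 0 on every array.

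Most members could be read from further probe sets. Of 63 probe sets for the members, 26 beside the brightest lay above the threshold, in 16 members. On day 5, 24 of the 26 were lower in KO, 24 had the same sign as the brightest set of their gene, and 13 were at least 1.5-fold lower. From day 2 to day 5 in KO, 24 of the 26 were lower.

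Mitochondrial acyl-CoA enzymes outside the list were also mostly lower in KO on day 5. Of 22 further mitochondrial acyl-CoA enzymes, many of them for branched-chain amino acids and all 22 measured, 19 were lower in KO on day 5, 6 of them at least 1.5-fold, with a median of -0.34. Of all genes, 45.9% were lower in KO on day 5 and 3.1% at least 1.5-fold. Among these, Pccb, a subunit of propionyl-CoA carboxylase, passed limma's test of a fall within KO (adjusted p = 0.0351), as 1.3% of all genes did. Pccb had 809.5, 670.2 and 431 in KO and 947.5, 969 and 819 in L/L, with every KO array below every L/L array. Auh, Gcdh and Mccc2, enzymes of leucine and lysine breakdown, had day 5 differences of -0.73, -0.72 and -0.69 and were not called.

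Further peroxisomal enzymes, 19 of 24 measured, had a day 5 median of -0.18 with 13 lower in KO. Limma called 3 of them falling within KO: catalase (Cat, adjusted p = 0.0289), the retinol dehydrogenase Dhrs4 (adjusted p = 0.0473) and the thioesterase Acot4 (adjusted p = 0.0476), against 1.3% of all genes. Cat had 3308, 2396 and 1518 in KO and 3088, 2793 and 2542 in L/L, lowest in KO on day 5. Acot12, Pecr, Acox3 and Hacl1, the largest mean differences of that list, had mean values of 0.36, -0.32, -0.32 and -0.31 and were not called. Peroxins, the proteins of peroxisome assembly, had a day 5 median of -0.15 over 12 of 15 measured, and limma called 0 of them. Pex13, Pex7, Pex10 and Pex16 had the largest mean differences of that list, from -0.18 to -0.12.

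Genes that bring fatty acids and carnitine to the pathway did not follow the members as a group. Acyl-CoA synthetases and fatty acid transport proteins, 11 of 15 measured, had a day 5 median of 0.05. Acss2, the cytosolic acetyl-CoA synthetase, fell within KO (limma, adjusted p = 0.038), with 217, 192 and 109 in KO and 231, 246 and 218 in L/L. Acss1 had a day 5 difference of -0.70, while Acsm3 and Acsl4 had 0.87 and 0.85, and none of these was called. Genes of carnitine uptake, synthesis and shuttling, 8 of 9 measured, had a median of -0.08. Bbox1, the last enzyme of carnitine synthesis, rose within KO (limma, adjusted p = 0.0464), with 635, 688 and 1134 in KO and 526, 524 and 481 in L/L, and no overlap between genotypes. Slc22a5 and Aldh9a1 had day 5 differences of 0.39 and -0.39, and Cpt1c had 81.7 in KO and 42.5 in L/L on day 5, with 3 of its 6 arrays below the threshold for dim genes. Further ketone body genes, 4 of 11 measured, had a median of 0.01. Oxct1, which uses ketone bodies, rose within KO (limma, adjusted p = 0.045), with 1425, 1682 and 2462 in KO and 1415, 1776 and 2254 in L/L, and so was highest on day 5 in both genotypes. Slc16a6, Slc16a1 and Aacs of that list had day 5 differences of 0.17, -0.25 and -0.10. Of the 7 genes of these lists called within KO (Pccb, Cat, Dhrs4, Acot4, Acss2, Bbox1 and Oxct1), 0 passed with no filter on dim genes, without KO day 2 or without KO day 5, and only Cat without KO day 3 (adjusted p = 0.0351, limma). Leaving out an L/L array ended the calls of Bbox1 and Dhrs4 (adjusted p = 0.0511 and 0.0518, limma).

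Regulators and other PPARA targets gave no call in any of the 4 tests. Of 22 measured regulators of 23, 15 were lower in KO on day 5 and 4 at least 1.5-fold, with a median of -0.09. Ppargc1b, the close relative of Ppargc1a, had 439, 376 and 380.3 in KO and 417, 525 and 664.5 in L/L, a day 5 difference of -0.81 that like that of Ppargc1a came with a higher L/L level. Ppard, Esrrg and the mitochondrial DNA factor Tfam had day 5 differences of -0.66, -0.88 and -0.70. Other PPARA target genes, 18 of 26 measured, had a day 5 median of 0.05, with 7 lower in KO. Angptl4, an inhibitor of lipoprotein lipase, had 1626, 1240.5 and 963 in KO and 976, 522.5 and 819.8 in L/L, higher in KO on each day and most on day 3. Me1, a source of NADPH, had a day 5 difference of -0.82, while the lipid droplet protein Cidec, also counted among the fat markers, had 0.61, and Txnip had 0.32. Genes of malonyl-CoA and AMP kinase control, 10 of 10 measured, had a day 5 median of -0.04, and limma called 0 of them. The AMP kinase subunit Prkab1 had a day 5 difference of 0.51, Prkag2 one of -0.42, Prkaa2 one of -0.16 and Prkaa1 one of -0.02.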

How the data were processed

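Per the labels, biotin-labelled RNA pooled from mice of 1 genotype and day was hybridised to 6 Affymetrix 3′ expression arrays. The deposited table holds 1 processed intensity per probe set and array. The submitters' processing notes name the software Partek and the method RMA without saying what each did. The intensities ran from 3.82 to 31146, a linear scale, so log2 was taken with no pseudocount. Array medians lay between 57.7 and 59.7, and no further normalization was applied. Arrays give no read depth, and their number limits the precision.

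Of 45101 probe sets, 64 were controls, 34945 had 1 gene in the platform annotation, 932 had several and 9160 were not listed. Those with several genes were left out, and 34741 symbols were updated through the gene ID to GRCm38.p6. The brightest probe set stood for each gene, and genes above the 40th percentile of mean log2 intensity were kept. For the members Acaa2, Hadh, Crat, Eci2 and Acaa1a that probe set was of a kind that can bind several transcripts.

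Tests used limma 3.58.1 in R 4.3.3 (lmFit, eBayes, two-sided), with Benjamini-Hochberg adjustment over 13042 genes at 0.05. The genotype difference had day as a factor (2 residual degrees of freedom). Its slope added genotype times centred day (1 residual degree of freedom). Slopes within a genotype came from a fit with 1 line per genotype (2 residual degrees of freedom). The p-values measure only variation between days, or departure from a line, in pooled arrays. Single-day differences were not tested and were counted at 1.5-fold.

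The members, gene lists and marker lists were chosen with earlier results of these data known. Named were all members, Fitm2, up to 4 genes of each pathway list with the largest mean difference, and genes of any list that passed a test. Marker lists were otherwise given by their sums. Further markers named for their day 5 values, in either direction, were chosen after their values were seen. Start regions came from RefSeq on GRCm38.p6. The members on chromosome 18, Acaa2 and Hsd17b4, had no window there and were not searched. Alternatives covered probe set choice, filter, offset, centring, cyclic loess, eBayes settings, the day term, compartment grouping and leaving out days or arrays.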

Additional observations from a re-analysis of the deposited data

Results flagged for a closer look

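Among the genes set beside the members, 3 cell type or segment markers had a KO against L/L difference that itself changed over the days, by limma's test of the product of genotype and day. Olfm4, a crypt stem cell gene, changed by -0.69526 per day on the log2 scale (adjusted p = 0.0454). Ada, an adenosine deaminase, changed by 0.464509 per day (adjusted p = 0.0373), with intensities of 3625, 3479 and 5580 in KO and 3491, 2437 and 2047 in L/L. Cybrd1, a ferric reductase of the proximal intestine, changed by 0.458098 per day (adjusted p = 0.0414), with 55.2, 62.6 and 134 in KO and 56.4, 54.1 and 54.4 in L/L. Within KO alone Olfm4 also fell (limma, adjusted p = 0.0278) and Cybrd1 rose (limma, adjusted p = 0.03). When day entered as a straight line in each genotype, 0 genes passed that test. No member of the fatty acid oxidation set met this criterion, and groups of 3 arrays are too small for a search for single outlying arrays.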

How the results depend on the processing

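Counts of called genes depended on the processing more than medians did. The genotype difference over the 3 days (3 genes) gave 1 with the mean of all probe sets and 0 to 2 when a day was left out, 0 without day 3. Its change per day (160 genes) gave 78 without probe sets that can bind several transcripts, 0 with no filter, 275 with the 60th percentile filter, 550 with an offset of 32, 312 with median centring, 512 with the trend and robust settings and 0 with a linear day slope for each genotype. Members called lower in that test (0) numbered 2 with the mean of probe sets, 3 with the 60th percentile filter, 7 with the offset, 3 with centring and 7 with the trend and robust settings. Within KO (323 genes) 61 passed with no filter, 161 with median centring and 0 to 321 when an array was left out. There the 4 falling members became 1 with no filter, 7 with trend and robust settings and 0 to 4 when an array was left out. The rising member, Vnn1, became 0 with no filter, centring or cyclic loess, and 0 whenever any array was left out. Within L/L (0 genes, 1438 at an unadjusted p below 0.05) leaving out an array gave 0 to 2. Members 1.5-fold lower in KO on day 5 (5) numbered 10 with the mean of probe sets and 9 with centring, and 0 passed 2-fold. Members 1.5-fold higher on day 5 (0) numbered 1 with the mean of probe sets. From day 2 to day 5 in KO, 1 member was 2-fold lower (6 at 1.5-fold) and 0 were 2-fold higher (1 at 1.5-fold). In L/L the 0 lower members became 1 with the mean of probe sets or without probe sets that bind several transcripts, and the 0 higher ones 1 with the mean of probe sets. The peroxisomal day 5 median (-0.27) was -0.41 with the mean of probe sets and -0.44 with the members of both compartments included.

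Some signs turned, most of them without day 5. Mean genotype differences ranged, when a day was left out, from -0.025 to 0.054 for Crot, -0.039 to 0.11 for Acadl, -0.14 to 0.021 for Hadha, -0.35 to 0.057 for Acaa2, -0.24 to 0.0014 for Acaa1b, -0.24 to 0.091 for Abcd3, -0.059 to 0.0031 for Aacs, -0.034 to 0.069 for Oxct1, -0.039 to 0.50 for Acsl4 and -0.21 to 0.050 for Acot4. The mean of probe sets gave -0.028 for Crot and -0.049 for Oxct1, and leaving out probe sets that bind several transcripts gave 0.081 for Pex16. When an array was left out, the KO slope of Eci2 ranged from -0.19 to 0.0073 and the L/L slope of Vnn1 from -0.011 to 0.18. The L/L slope of Abcd3 was 0.10 with the mean of probe sets. The cause was not tested.

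No paired analysis was possible because the labels give no replicate numbers, beyond the pairing of KO and L/L arrays by day that the day factor of the genotype fit already makes. Without the day term 3 genes passed that test. Leaving out a day could not be fitted for the slope of the difference, which then has no residual degree of freedom. Leaving out single arrays in the slope fits, the linear day slope for each genotype and the comparison of further probe sets were chosen after seeing the data. Pooling hides the spread between mice, and without the KO day 5 array 0 genes passed the test within KO. No member had an array below the threshold for dim signals, which is a percentile of the intensities and not a measured background.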
